A study of Mus musculus with 27 samples.

Results

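The miR-181 family was followed in mouse embryonic stem (ES) cells that lack a component of the Polycomb complex PRC2. Its 7 mature microRNAs, of 1900 mature names in the tables, were taken by name: the guide strands mmu-miR-181a-5p, mmu-miR-181b-5p, mmu-miR-181c-5p and mmu-miR-181d-5p and the opposite arms mmu-miR-181a-1-3p, mmu-miR-181a-2-3p and mmu-miR-181c-3p, where mmu stands for mouse and is dropped from here on. They occupy 9 of the 2035 loci, because miR-181a-5p and miR-181b-5p are each encoded on chromosome 1 and again on chromosome 2. The family was selected on its counts-per-million in the 4 genotype columns described here, which were already known, so its levels are given as a description and no test is attached to them. All cells were of the CJ7 ES line, grown with serum and leukemia inhibitory factor. The genotypes were Eed-/-, Ezh2-/-, Jarid2-/- and wild-type. The labels give no more on how the mutant lines were made or whether each is 1 clone. Eed and Ezh2 are core subunits of PRC2, which methylates histone H3 at silent genes, and Jarid2 is a cofactor that helps to recruit it.

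The labels list 2 small RNA samples for Eed-/-, 2 for Ezh2-/-, 1 for Jarid2-/- and 2 for wild-type, and the tables hold 1 column of counts per genotype. No difference between genotypes therefore has a replicate check. The columns totalled 42293019 microRNA counts in Eed-/-, 32074712 in Ezh2-/-, 8485806 in Jarid2-/- and 23793733 in wild-type. Levels are counts-per-million of these totals (CPM). Ranges in parentheses are exact 95% intervals of the counts (Poisson for levels, binomial for folds and shares). They cover counting error only: PCR copies are counted as if each were a separate molecule. A count of 0 is read as at most 3 counts, which is 0.0709 CPM in Eed-/-, 0.0935 in Ezh2-/-, 0.354 in Jarid2-/- and 0.126 in wild-type. The ES cell character of the columns showed in 9 microRNAs of the miR-290 and miR-302 clusters, which summed to 366128 CPM in Eed-/-, 392885 in Ezh2-/-, 298492 in Jarid2-/- and 348022 in wild-type. Of these 9, 4 were at least 2-fold higher in Eed-/-, 2 in Ezh2-/- and 1 in Jarid2-/-, where 1 was lower. Of all loci tested, 17.5% were higher in Eed-/-, 4.90% in Ezh2-/- and 16.3% in Jarid2-/-, where 22.8% were lower. With 9 microRNAs these calls are a description only. The sums ran from 298492 to 392885 CPM and cover unlike single levels, such as miR-292-3p at 80159 CPM in Eed-/-, 85326 in Ezh2-/-, 43537 in Jarid2-/- and 26769 in wild-type. The messenger RNA of Eed, Ezh2 and Jarid2 was not analysed here, so the genotype labels were not checked.

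A microRNA guides Argonaute proteins to messenger RNAs that pair with its seed, bases 2 to 8 from the 5′ end, and lowers their stability and translation. A hairpin precursor yields a 5p and a 3p strand, of which usually 1 is retained as the guide and the other is mostly degraded. The miR-181 family is best known from lymphocytes, where miR-181a tunes the sensitivity of T cell receptor signalling. It is also expressed in brain, muscle and endothelium. In mouse ES cells the miR-181 and miR-125 families are known repressors of Cbx7, a subunit of the partner complex PRC1.

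The 4 guides share 1 seed, shown here in capitals as the tables give the sequences, 5′ to 3′, because this is what makes them a family.
miR-181a-5p: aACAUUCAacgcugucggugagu
miR-181b-5p: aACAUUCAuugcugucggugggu
miR-181c-5p: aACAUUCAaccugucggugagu
miR-181d-5p: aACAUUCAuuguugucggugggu
Of the 1900 mature names, these 4 alone carry the seed ACAUUCA. Outside the seed they form 2 pairs. Counted from 1 at the 5′ end, miR-181b-5p differs from miR-181d-5p by the substitution C12U, and miR-181a-5p differs from miR-181b-5p by A9U, C10U and A21G. MiR-181c-5p aligns to miR-181a-5p with 0 substitutions and 1 gap, being 22 rather than 23 bases long. The sources used here do not say how the counting treated reads that match more than 1 member, and the part of a close relative in the counts of a rare member was not tested. The quotient of miR-181b-5p to its nearest relative miR-181d-5p was 0.456 (0.442 to 0.469) in Eed-/-, 0.0792 (0.0731 to 0.0858) in Ezh2-/-, 0.196 (0.178 to 0.215) in Jarid2-/- and 0.155 (0.148 to 0.163) in wild-type. This quotient takes miR-181b-5p as the mean of its loci.

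The 3p members are shown for the same reason. They do not all share a seed, so they do not all pair with the same site sequence.
miR-181a-1-3p: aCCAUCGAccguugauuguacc
miR-181c-3p: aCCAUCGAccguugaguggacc
miR-181a-2-3p: aCCGACCGuugacuguaccuug
miR-181a-2-3p in RefSeq: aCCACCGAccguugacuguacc
The first pair has the same seed CCAUCGA, although the hairpins lie on chromosomes 1 and 8, and differs by U16G and U19G. For miR-181a-2-3p the sequence in the tables (miRBase release 20) begins 3 bases downstream of the one in RefSeq (GRCm38.p6), so its annotated seed differs between the 2 sources. The other 6 members matched RefSeq exactly, except that miR-181b-5p is 1 base longer there (24 bases).

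The hairpins form 3 pairs in the genome (mm9, coordinates of the deposited tables). On chromosome 1 miR-181a-5p lies at chr1:139863045-139863067 and miR-181b-5p at chr1:139863227-139863249, both on the plus strand, with 182 bases between their 5′ ends. On chromosome 2 the second copies lie at chr2:38708261-38708283 and chr2:38709365-38709387, also on the plus strand and 1104 bases apart. On chromosome 8 miR-181c-5p lies at chr8:86702823-86702844 and miR-181d-5p at chr8:86702658-86702680, on the minus strand and 164 bases apart. In the RefSeq gene table (GRCm38.p6) the chromosome 2 pair lies inside the span of Nr6a1, which encodes a nuclear receptor that silences Oct4 as ES cells differentiate, and of its antisense transcript gene Nr6a1os. The chromosome 1 pair overlaps no other gene of that table, and its nearest protein-coding gene among the 3 closest is Ptprc, the CD45 phosphatase of blood cells. The chromosome 8 pair overlaps no other gene, and the closest is Nanos3, a germ cell RNA-binding protein gene.

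The family's guides, taken as a sum, were less abundant in all 3 mutants, with miR-181c-5p accounting for most of the difference in CPM. The miR-181a and miR-181b guides had a different pattern: in Eed-/- miR-181b-5p was 1.79-fold above wild-type and miR-181a-5p had a ratio of 0.985. With 1 value per name (the mean of its loci), the 4 guides summed to 1114 CPM (1104 to 1124) in Eed-/-, 952 CPM (942 to 963) in Ezh2-/-, 863 CPM (843 to 883) in Jarid2-/- and 2411 CPM (2391 to 2431) in wild-type. Eed-/- was 2.16-fold below wild-type (2.14 to 2.19), Ezh2-/- 2.53-fold (2.50 to 2.57) and Jarid2-/- 2.79-fold (2.73 to 2.86). Without miR-181c-5p the other 3 guides were below wild-type by 1.29-fold (1.26 to 1.32) in Eed-/-, 2.32-fold (2.27 to 2.39) in Ezh2-/- and 1.67-fold (1.61 to 1.73) in Jarid2-/-. The 3 comparisons share the wild-type column, so a deviation of that column would move all 3. Scaling by the authors' reads-per-million (RPM) denominators moved the log2 ratio of the 4-guide sum to -0.40 in Eed-/-, -0.90 in Ezh2-/- and -0.99 in Jarid2-/-, against -1.11, -1.34 and -1.48 with total microRNA counts, and left its direction in place. In Ezh2-/- TMM factors moved it further, to -0.61.

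**Figure D1:**
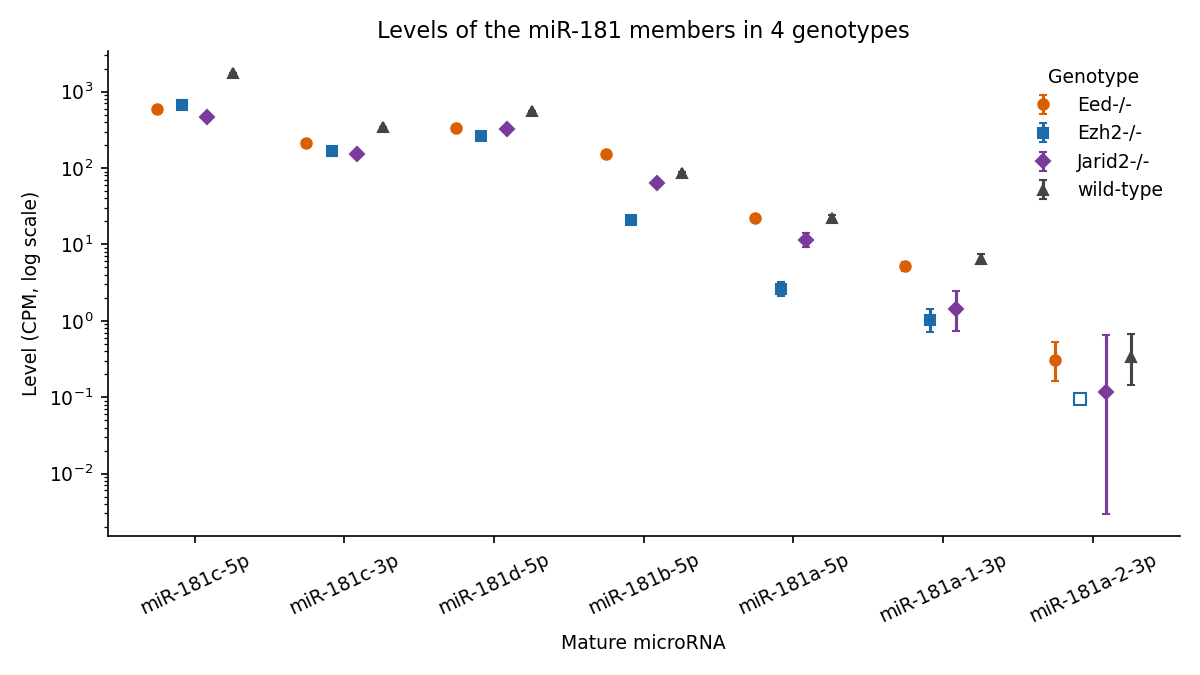
Level of each miR-181 member in CPM on a log axis, with 1 point per genotype (Eed-/-, Ezh2-/-, Jarid2-/- and wild-type) and exact Poisson 95% intervals as bars. The open square is a count of 0 drawn at the 3-count limit; the 3 members from chromosome 8 are highest in wild-type (with the RPM denominators miR-181c-3p is highest in Eed-/-), while miR-181b-5p is highest in Eed-/- and miR-181b-5p and miR-181a-5p are lowest in Ezh2-/-.

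MiR-181c-5p, the most abundant member in every genotype, stood at 601 CPM (594 to 609) in Eed-/-, 668 CPM (659 to 677) in Ezh2-/-, 466 CPM (452 to 481) in Jarid2-/- and 1750 CPM (1733 to 1766) in wild-type. Wild-type was apart from the 3 mutants, which lay within 1.5-fold of each other although their counting intervals did not overlap. Set against wild-type, Eed-/- had 2.91-fold less (2.86 to 2.96), Ezh2-/- 2.62-fold less (2.58 to 2.66) and Jarid2-/- 3.75-fold less (3.63 to 3.88). With other scalings the difference was under 2-fold in Eed-/- with the RPM denominators (log2 ratio -0.83, against -1.54) and in Ezh2-/- with TMM factors (-0.66, against -1.39), median-ratio factors (-0.87) and RPM denominators (-0.94), while in Jarid2-/- it ran from -2.03 to -1.41. Its rank among the 1900 names was 94 in Eed-/-, 73 in Ezh2-/-, 98 in Jarid2-/- and 57 in wild-type.

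MiR-181d-5p, processed from the neighbouring hairpin, was lower by less. It stood at 337 CPM (331 to 342) in Eed-/-, 261 CPM (256 to 267) in Ezh2-/-, 322 CPM (310.2 to 334) in Jarid2-/- and 553 CPM (544 to 563) in wild-type. The folds were 1.64 (1.60 to 1.68), 2.12 (2.06 to 2.18) and 1.72 (1.65 to 1.79) lower in Eed-/-, Ezh2-/- and Jarid2-/-. Eed-/- and Jarid2-/- had overlapping intervals, and wild-type was highest under each scaling tried, although with the RPM denominators the log2 ratio in Eed-/- was -0.003.

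The opposite arm miR-181c-3p stood at 209.8 CPM (205 to 214) in Eed-/-, 166 CPM (161 to 170.3) in Ezh2-/-, 151 CPM (142 to 159) in Jarid2-/- and 342 CPM (334 to 349) in wild-type. It was thus below miR-181d-5p and above miR-181b-5p in abundance in each genotype. Its log2 ratios, with 1 CPM added, were -0.70, -1.04 and -1.18 in the same order of mutants, and the first became 0.008 with the RPM denominators.

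With total counts miR-181b-5p differed from the chromosome 8 members in direction in Eed-/-, but not in Ezh2-/- or Jarid2-/-. It stood at 153 CPM (149.7 to 157) in Eed-/-, 20.7 CPM (19.1 to 22.3) in Ezh2-/-, 63.2 CPM (57.9 to 68.7) in Jarid2-/- and 85.9 CPM (82.2 to 89.7) in wild-type. No 2 of these intervals overlapped. Eed-/- exceeded wild-type 1.79-fold (1.70 to 1.88), whereas Ezh2-/- was 4.15-fold below it (3.80 to 4.54) and Jarid2-/- 1.36-fold below it (1.24 to 1.50). The difference in Eed-/- was below the 2-fold limit with total counts and passed it with the RPM denominators (log2 ratio 1.54), while the difference in Jarid2-/- changed sign there (0.05).

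MiR-181a-5p, the member best studied in T cells, was scarce in these ES cells. It stood at 22.0 CPM (20.7 to 23.5) in Eed-/-, 2.62 CPM (2.09 to 3.24) in Ezh2-/-, 11.5 CPM (9.38 to 14.1) in Jarid2-/- and 22.4 CPM (20.5 to 24.4) in wild-type. The intervals of Eed-/- and wild-type overlapped, and the other neighbours in the order were apart. Ezh2-/- was 8.55-fold below wild-type (6.77 to 10.9) and Jarid2-/- 1.94-fold below it (1.56 to 2.43), and the ratio of Eed-/- to wild-type was 0.985 (0.885 to 1.10). The log2 ratio in Eed-/- was -0.02 with total counts and 0.67 with the RPM denominators.

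The 2 genomic copies of these guides could not be separated by their own counts. Both loci of miR-181a-5p carried 84 counts in Ezh2-/- and 98 in Jarid2-/-, with 934 and 931 in Eed-/- and 533 and 532 in wild-type. For miR-181b-5p the loci differed by at most 2.58% of the larger count. The 3p arms differ in sequence between the copies and are counted apart. MiR-181a-1-3p, from chromosome 1, had 220 counts in Eed-/-, 33 in Ezh2-/-, 12 in Jarid2-/- and 154 in wild-type. MiR-181a-2-3p, from chromosome 2, had 13, 0, 1 and 8 counts in the same order. The chromosome 1 arm thus made up 94.4% (90.6 to 97.0%) of the pair in Eed-/-, 100% (89.4 to 100%) in Ezh2-/-, 92.3% (64.0 to 99.8%) in Jarid2-/- and 95.1% (90.5 to 97.8%) in wild-type, all overlapping. This share describes the 3p arms as annotated, including the shifted start of miR-181a-2-3p, and not the copies' output of guide strand. MiR-181a-1-3p differs only by U16G and U19G from miR-181c-3p, which had 8130 counts in wild-type. How far reads of miR-181c-3p entered the chromosome 1 counts was not tested.

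MiR-181a-1-3p, the opposite arm of the chromosome 1 copy, was called lower in Ezh2-/- and Jarid2-/-. Its level was 5.20 CPM (4.54 to 5.94) in Eed-/-, 1.03 CPM (0.708 to 1.44) in Ezh2-/-, 1.41 CPM (0.731 to 2.47) in Jarid2-/- and 6.47 CPM (5.49 to 7.58) in wild-type. Against wild-type it was reduced 6.29-fold (4.30 to 9.46) in Ezh2-/- and 4.58-fold (2.55 to 9.05) in Jarid2-/-, and the Eed-/- and wild-type intervals overlapped. At this low level the calls depended on the amount added to each CPM: with 10 CPM in place of 1 the log2 ratios were -0.58 in Ezh2-/- and -0.53 in Jarid2-/-, and neither was called. For miR-181a-2-3p the 0 counts in Ezh2-/- allow up to 0.0935 CPM and stand beside 0.336 CPM (0.145 to 0.662) from 8 counts in wild-type. With 0.115 CPM as the upper end of the Ezh2-/- interval, the intervals of these columns were apart by little, and the locus did not pass the filter.

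Set against all microRNA loci, the family stood out in number of calls in Ezh2-/- and not in Eed-/-. Loci entered with 10 counts or more in the mutant or the wild-type column, and a difference was called from 2-fold upwards, that is a log2 ratio of 1 or more in either direction after adding 1 CPM to both levels. All 9 family loci passed that filter in Eed-/- and 8 in each of the other comparisons, where miR-181a-2-3p did not. In Eed-/- 1 of 9 loci was called lower (miR-181c-5p) and 0 higher, while 15.0% of the 1096 tested loci were lower and 17.5% higher. In Ezh2-/- 8 of 8 loci were lower and 0 higher, beside 24.5% lower and 4.90% higher of 1000 loci. In Jarid2-/- 3 of 8 were lower (miR-181c-5p, miR-181c-3p and miR-181a-1-3p), and 0 higher, beside 22.8% lower and 16.3% higher of 950 loci. The median log2 ratio over the tested family loci was -0.03 in Eed-/-, -1.93 in Ezh2-/- and -0.90 in Jarid2-/-, and over all tested loci 0.08, -0.44 and -0.17. Because loci of 1 name share their reads and the members were chosen with these values known, the counts describe the family and do not test it.

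The count in Ezh2-/- depended on the scaling for the chromosome 8 members. With TMM factors, median-ratio size factors or RPM denominators 5 of the 8 loci stayed at least 2-fold lower, those of miR-181a-5p, miR-181b-5p and miR-181a-1-3p, whose log2 ratios ran from -2.36 to -1.30. Of the 1000 tested loci 163 were called lower with TMM, 189 with median-ratio factors and 194 with RPM denominators. Those of miR-181c-5p, miR-181c-3p and miR-181d-5p then ran from -0.94 to -0.31. Relative to the median of all tested loci, miR-181a-5p stood at -2.25, miR-181b-5p at -1.56, miR-181c-5p at -0.95, miR-181d-5p at -0.64 and miR-181c-3p at -0.60 in Ezh2-/-. In Eed-/- miR-181c-5p stood at -1.62 and miR-181b-5p at 0.75 on the same scale, and in Jarid2-/- miR-181c-5p stood at -1.73 and miR-181b-5p at -0.26.

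**Figure D2:**
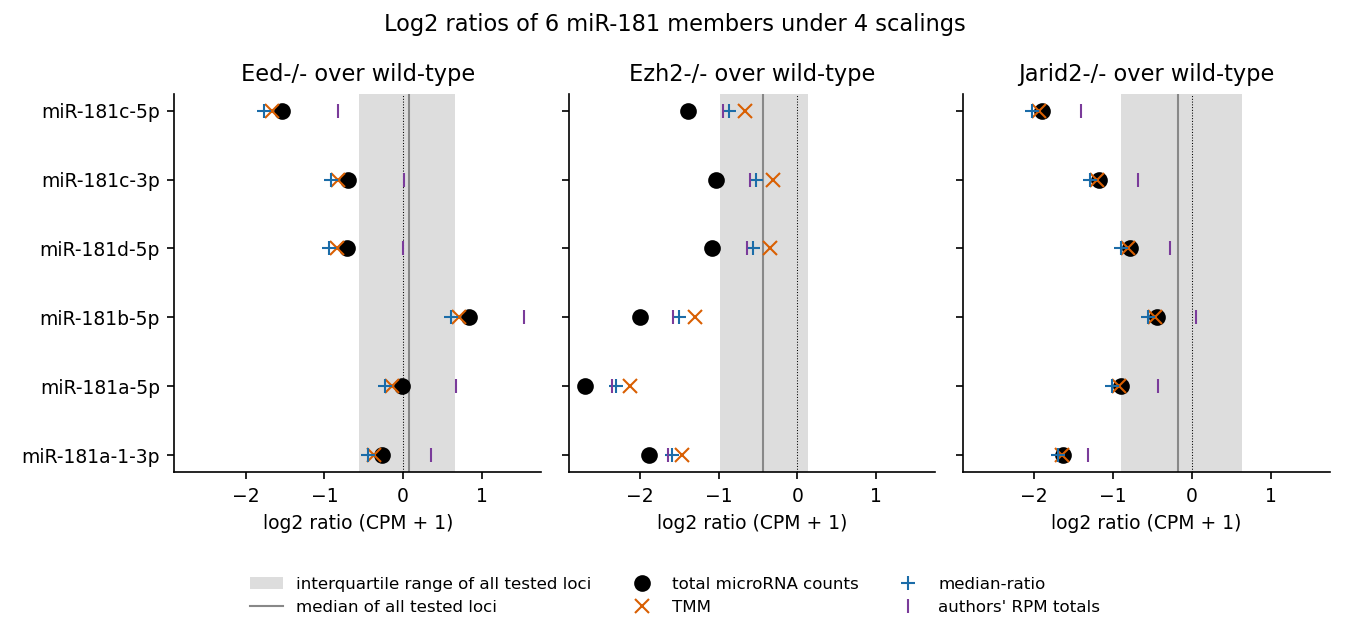
Log2 ratio of CPM plus 1 for 6 members in each mutant over wild-type, with 1 mark per scaling. The grey band is the interquartile range of all tested loci with total counts and the grey line their median. Neither was redrawn for the other scalings, which shifted that median, by 0.54 in Ezh2-/- with TMM factors. MiR-181c-5p lies left of the band in Eed-/- and Jarid2-/- under each scaling, and miR-181a-5p and miR-181b-5p lie left of 0 by more than 1 in Ezh2-/- under each scaling.

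Comparisons inside the family do not depend on how the columns are scaled, and they differed between genotypes. MiR-181c-5p made up 54.0% (53.5 to 54.4%) of the 4 guides' counts in Eed-/-, 70.1% (69.6 to 70.6%) in Ezh2-/-, 54.0% (52.9 to 55.1%) in Jarid2-/- and 72.6% (72.2 to 72.9%) in wild-type. The miR-181a and miR-181b guides together made up 15.8% (15.4 to 16.1%) in Eed-/-, 2.45% (2.28 to 2.63%) in Ezh2-/-, 8.66% (8.02 to 9.33%) in Jarid2-/- and 4.49% (4.32 to 4.66%) in wild-type. The seed-sharing pool thus had a larger miR-181a and miR-181b part in Eed-/- and Jarid2-/- and a smaller one in Ezh2-/- than in wild-type. These shares take the mean of the loci for miR-181a-5p and miR-181b-5p. Summing their loci would raise the miR-181a and miR-181b part in every genotype.

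Single guides also differed relative to each other. Within the chromosome 8 pair, the quotient of miR-181c-5p to miR-181d-5p was 1.79 (1.75 to 1.82) in Eed-/-, 2.56 (2.49 to 2.62) in Ezh2-/-, 1.45 (1.38 to 1.52) in Jarid2-/- and 3.16 (3.10 to 3.23) in wild-type, lower in each mutant. The quotient of miR-181b-5p to miR-181a-5p, which covers both of their genomic copies together, was 6.96 (6.50 to 7.47) in Eed-/-, 7.90 (6.29 to 10.0) in Ezh2-/-, 5.47 (4.40 to 6.85) in Jarid2-/- and 3.84 (3.49 to 4.23) in wild-type, higher in each mutant. Adaptor ligation favours some small RNAs over others, so a quotient of 2 microRNAs is not a ratio of molecules.

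**Figure D3:**
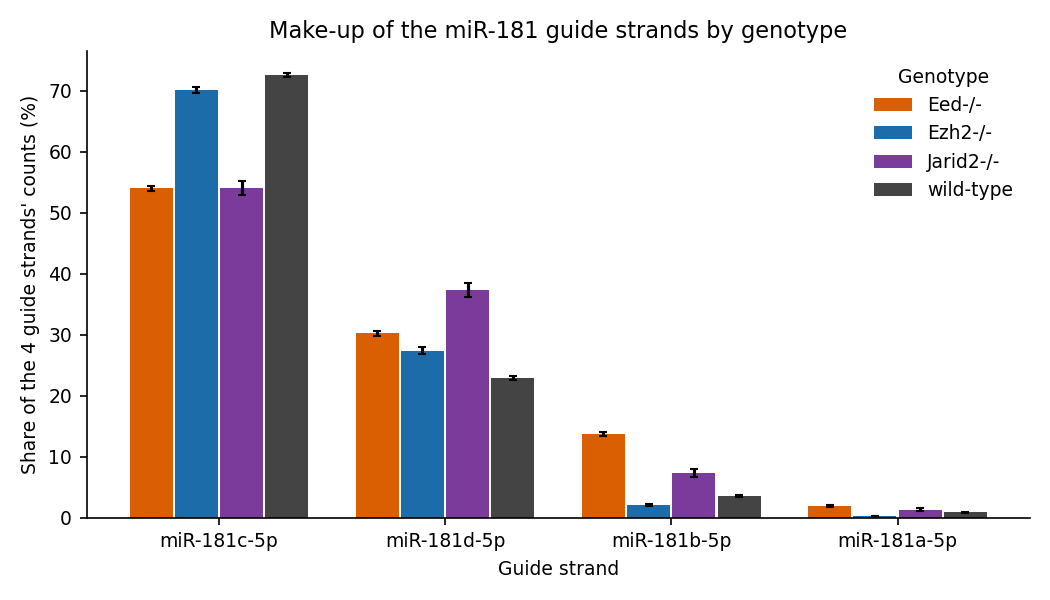
Share of the summed counts of the 4 miR-181 guides (percent, bars from 0) taken by each guide in Eed-/-, Ezh2-/-, Jarid2-/- and wild-type, with exact binomial 95% intervals. MiR-181c-5p takes 72.6% in wild-type and 54.0% in Eed-/- and Jarid2-/-, and miR-181b-5p takes its largest share, 13.8%, in Eed-/-. Each guide is the mean of its loci, and summing the loci of miR-181a-5p and miR-181b-5p would raise their shares.

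The balance of arms was measured as the 3p share of 5p plus 3p counts. For miR-181c it was 25.9% (25.4 to 26.3%) in Eed-/-, 19.9% (19.4 to 20.4%) in Ezh2-/-, 24.4% (23.3 to 25.6%) in Jarid2-/- and 16.3% (16.0 to 16.7%) in wild-type, higher in each mutant. The hairpin of miR-181d is shown because its 3p arm, no listed member of the family but read from the same precursor as miR-181d-5p, behaved differently in 1 genotype (RefSeq, GRCm38.p6, chr8:84178716-84178787, minus strand, both arms in capitals).
Mir181d: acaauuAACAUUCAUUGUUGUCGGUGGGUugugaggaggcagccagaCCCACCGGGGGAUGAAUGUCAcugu
The 3p share of miR-181d was 3.52% (3.23 to 3.83%) in Eed-/-, 4.36% (3.94 to 4.81%) in Ezh2-/-, 0.328% (0.150 to 0.622%) in Jarid2-/- and 3.26% (2.97 to 3.58%) in wild-type. In counts, miR-181d-3p had 520, 382, 9 and 444 in that order, so that its level was 17.6-fold lower (9.18 to 38.7) in Jarid2-/- while miR-181d-5p of the same hairpin was 1.72-fold lower. Of 236 hairpins with at least 100 counts in both columns, 4.66% had a change of the 3p to 5p quotient below that of miR-181d in Jarid2-/-, a log2 change of -3.28, and the interquartile range ran from -1.34 to 0.68. MiR-181c changed by 0.73 in the same comparison, with 75.8% of hairpins below it. Its change was 0.84 in Eed-/-, with 81.0% of 289 hairpins below it, and 0.35 in Ezh2-/-, with 62.9% of 229 below. The Ezh2-/- change lay inside the interquartile range of that comparison, -0.63 to 0.74.

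The 3p share of miR-181a, from both copies, was 20.0% (17.7 to 22.4%) in Eed-/-, 28.2% (20.3 to 37.3%) in Ezh2-/-, 11.7% (6.39 to 19.2%) in Jarid2-/- and 23.3% (20.2 to 26.7%) in wild-type. Only the intervals of Jarid2-/- and wild-type, and of Jarid2-/- and Ezh2-/-, were apart. These shares use the mean of the guide's loci; with the guide summed over its loci they were 11.1% in Eed-/-, 16.4% in Ezh2-/-, 6.22% in Jarid2-/- and 13.2% in wild-type. For miR-181b the share was under 0.5% in every genotype, with 22 counts in Eed-/-, 2 in Ezh2-/-, 1 in Jarid2-/- and 10 in wild-type. These counts summed miR-181b-1-3p and miR-181b-2-3p, and the arm balance of miR-181b was not resolved at this depth.

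**Figure D4:**
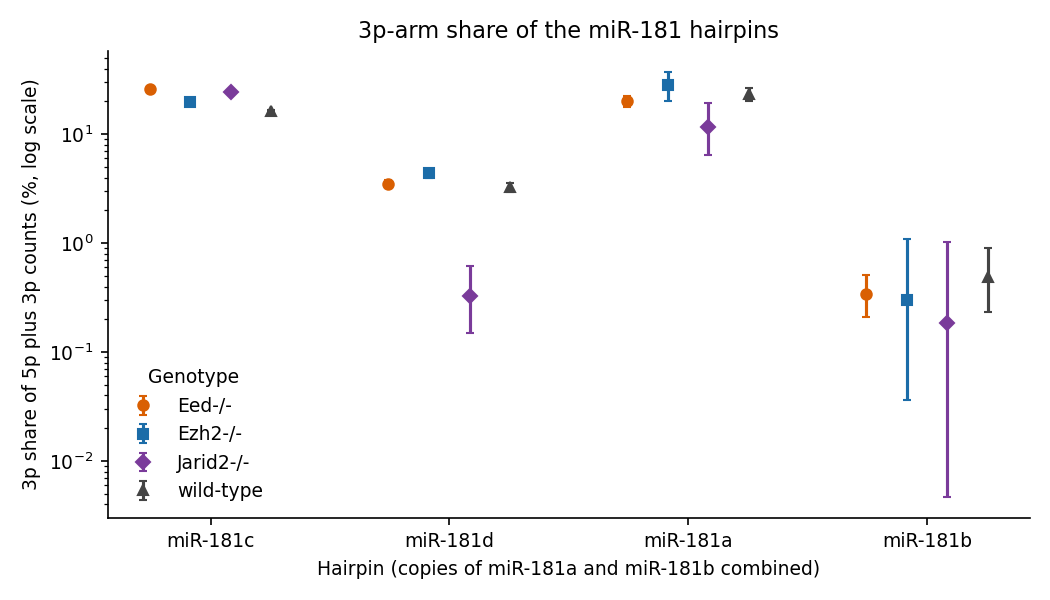
Share of 3p counts among 5p plus 3p counts for each miR-181 hairpin (percent, log axis) in Eed-/-, Ezh2-/-, Jarid2-/- and wild-type, with exact binomial 95% intervals and the guide taken as the mean of its loci (summing the loci of miR-181a-5p gives 6.22% to 16.4% for miR-181a). The miR-181d share in Jarid2-/- (0.328%) lies below those of the other genotypes (3.26% to 4.36%), and the miR-181c share is lowest in wild-type.

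Within 50 kb of the chromosome 1 and chromosome 2 pairs the tables list 0 other microRNA loci. Within the same distance of miR-181c and miR-181d they list 8, on the other side of a gap of 29582 bases, of which 6 belong to the miR-23a, miR-27a and miR-24-2 hairpins on the plus strand. These microRNAs are widely expressed and were abundant here. MiR-23a-3p (chr8:86732462-86732482) stood at 2817 CPM in Eed-/-, 2206 CPM in Ezh2-/-, 1502 CPM in Jarid2-/- and 4811 CPM in wild-type. Its log2 ratios were -0.77, -1.12 and -1.68 in the 3 mutants. MiR-27a-3p (chr8:86732626-86732646) stood at 359 CPM in Eed-/-, 368 CPM in Ezh2-/-, 217 CPM in Jarid2-/- and 892 CPM in wild-type, with log2 ratios of -1.31, -1.28 and -2.03. MiR-24-2-5p had log2 ratios of -1.04, -1.28 and -2.66. These lay in the direction of miR-181c-5p (-1.54, -1.39 and -1.91), and the sign of all 3 held under each scaling, although miR-23a-3p in Eed-/- came to -0.06 with the RPM denominators. MiR-27a-5p did not, at 1.18, -0.39 (0.10 with median-ratio factors) and -2.14, and miR-23a-5p, between 7.33 and 10.0 CPM, had ratios between -0.08 and 0.32, which reached 0.56 in Eed-/- and 0.78 in Jarid2-/- with the RPM denominators and 0.82 in Ezh2-/- with TMM factors. MiR-24-3p is also encoded elsewhere in the genome and is not read as a product of this locus. The miR-23a, miR-27a and miR-24-2 hairpins lie on the opposite strand to miR-181c and miR-181d. The remaining listed loci, miR-3074-5p and miR-3074-2-3p, lie on the minus strand at the position of miR-24-2, at 0.166 CPM or less in each column. Transcripts of this region were not analysed. Whether the 2 groups of hairpins are regulated together was not tested and cannot be read from counts of mature microRNAs.

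**Figure D5:**
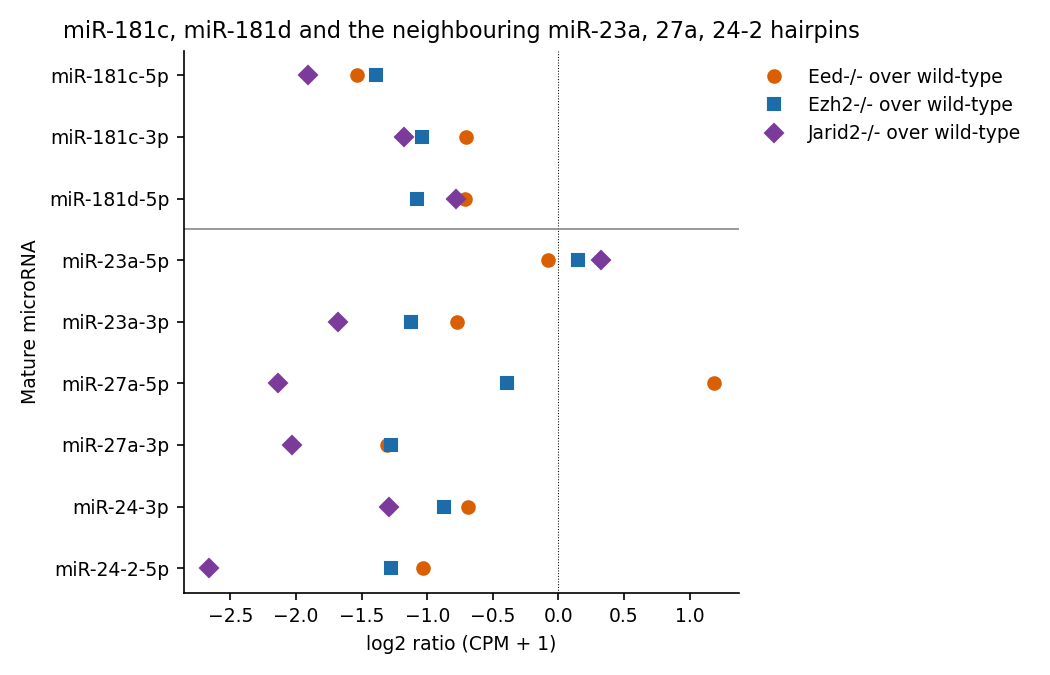
Log2 ratio of CPM plus 1 in each mutant over wild-type for the 3 chromosome 8 members (above the line) and for the microRNAs of the miR-23a, miR-27a and miR-24-2 hairpins 29582 bases away (below the line). MiR-23a-3p, miR-27a-3p, miR-24-2-5p and miR-24-3p, which is also encoded elsewhere, lie left of 0 in all 3 mutants, as do miR-181c-5p, miR-181c-3p and miR-181d-5p. MiR-27a-5p lies right of 0 in Eed-/- (1.18), and miR-23a-5p in Ezh2-/- (0.15) and Jarid2-/- (0.32). The median over all tested loci was 0.08 in Eed-/-, -0.44 in Ezh2-/- and -0.17 in Jarid2-/-. With the RPM denominators miR-24-3p (0.02) and miR-181c-3p (0.008) lie at 0 in Eed-/-.

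Over the 3 log2 ratios, the mature names nearest to the summed guides among 634 names with at least 100 counts in a column were miR-542-5p (Euclidean distance 0.29), miR-6372 (0.29), miR-100-5p (0.29), miR-27b-3p (0.30) and miR-145a-5p (0.42). Nearest to miR-181c-3p were miR-107-5p (0.15) and miR-24-3p (0.21), and nearest to miR-181a-1-3p were miR-222-3p (0.30) and miR-152-3p (0.30). For miR-181a-2-3p the nearest were miR-346-5p (0.19) and miR-148b-3p (0.20), but with at most 13 counts its own ratios carry little information. Each likeness rests on 3 values that share the wild-type column.

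The other family known to repress Cbx7, miR-125, summed to 1892 CPM in Eed-/-, 2199 CPM in Ezh2-/-, 2286 CPM in Jarid2-/- and 2877 CPM in wild-type. The log2 ratio of that sum was -0.61 in Eed-/-, -0.39 in Ezh2-/- and -0.33 in Jarid2-/-, but 0.11, 0.06 and 0.16 with the RPM denominators, and in Ezh2-/- it was also above 0 with TMM factors (0.34) and median-ratio factors (0.13), so its direction depended on the scaling. Its main guide miR-125a-5p stood at 1545 CPM (1533 to 1557) in Eed-/-, 1495 CPM (1482 to 1509) in Ezh2-/-, 2018 CPM (1988 to 2048) in Jarid2-/- and 2343 CPM (2323 to 2362) in wild-type, differences of less than 2-fold in each mutant. MiR-125b-5p had log2 ratios of -0.69, 0.41 and -1.07. Of the 5 listed miR-125 strands, 1 of 5 tested was called higher in Eed-/- (miR-125a-3p, log2 ratio 1.63) and 0 lower, 0 of 4 in either direction in Ezh2-/-, and 1 higher (miR-125a-3p, 1.43) and 1 lower (miR-125b-5p) of 4 in Jarid2-/-. Among all loci the called shares were 17.5% higher and 15.0% lower in Eed-/-, 4.90% and 24.5% in Ezh2-/-, and 16.3% and 22.8% in Jarid2-/-, so these few calls do not set the miR-125 strands apart. The median log2 ratio of the tested strands was 0.13, -0.51 and -0.14, beside 0.08, -0.44 and -0.17 over all tested loci. Counted as reads, the miR-181 guides came to less than the miR-125 strands in each genotype.

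Because miR-181 is abundant in blood, brain and muscle, markers of these cell types were read beside it. The 7 blood microRNAs found in the tables summed to 4775 CPM in Eed-/-, 9463 CPM in Ezh2-/-, 2903 CPM in Jarid2-/- and 5955 CPM in wild-type. Nearly all of this was miR-150-5p, while the myeloid miR-223-3p and the erythroid miR-144-3p had 9 counts or fewer in each column. The other markers did not move as one. MiR-142-5p, made in all blood lineages, stood at 2.44 CPM in Eed-/-, 134 CPM in Ezh2-/-, 39.2 CPM in Jarid2-/- and 212 CPM in wild-type, while miR-155-5p, of activated lymphocytes, stood at 155 CPM in Eed-/-, 131 CPM in Ezh2-/-, 37.4 CPM in Jarid2-/- and 68.7 CPM in wild-type. Of the 5 tested blood markers 3 were lower and 1 higher in Eed-/-, 0 in either direction in Ezh2-/-, and 2 lower in Jarid2-/-, to be read against the same shares of all loci. The 4 neural markers summed to 1241 CPM in Eed-/-, 1811 CPM in Ezh2-/-, 183 CPM in Jarid2-/- and 1232 CPM in wild-type, with 2 of 4 higher in Eed-/-, 1 lower in Ezh2-/- and 1 lower in Jarid2-/-. Most of that sum was miR-124-3p, at 992 CPM in Eed-/-, 1599 CPM in Ezh2-/-, 15.4 CPM in Jarid2-/- and 1014 CPM in wild-type, and the neural microRNA miR-9-5p stood at 37.9 CPM in Eed-/-, 0.374 CPM in Ezh2-/-, 2.36 CPM in Jarid2-/- and 2.44 CPM in wild-type. In Jarid2-/- the sum was low through miR-124-3p, and miR-128-3p held most of what was left, at 161 CPM. The 3 muscle markers summed to 26.0 CPM in Eed-/-, 5.08 CPM in Ezh2-/-, 2.83 CPM in Jarid2-/- and 6.89 CPM in wild-type, with 1 of 3 higher in Eed-/- (miR-206-3p). With 3 or 4 markers a list, a single call is not read as a result. Their part in the miR-181 differences was not tested. In bulk RNA, fewer cells with a microRNA and less of it per cell cannot be told apart.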

How the data were processed

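Small RNA of 18 to 40 nt was gel-selected and sequenced on a SOLiD instrument, per the labels' protocols, and cutadapt, Bowtie and build mm9 appear in the submitters' processing notes. No source used here gives versions, settings or the handling of reads with several matches. The 4 deposited tables give raw counts per mature locus (miRBase release 20) and reads-per-million (RPM), per the file headers. The RPM denominators that the deposited counts imply were 267248746 (Eed-/-), 243895676 (Ezh2-/-), 62259756 (Jarid2-/-) and 246316316 (wild-type), larger than the microRNA totals, which were 15.8%, 13.2%, 13.6% and 9.66% of them. RPM served as an alternative scaling.

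Columns were assigned by name: Ezh2 is named, the Eed-/- column reads HEED and was assigned because that holds Eed, Jumonji is an older name of Jarid2, and the wild-type column names only the CJ7 line. No source says whether a column pools samples. With 1 column per genotype the planned count test was not applicable, and differences are ratios with counting intervals (Python 3.11.15, scipy 1.17.1). TMM factors came from edgeR 4.0.16 and median-ratio size factors from DESeq2 1.42.0. Calls and intervals were tried on simulated Poisson counts drawn from the wild-type column. These held no variation between libraries, so the trial checked the calculation and not the intervals' fit to such variation. The members, lists and rules were chosen with earlier results of these data known. The microRNAs named are the members, the listed miR-125 and marker microRNAs, and the nearest patterns (5 to the guide sum, 2 to each 3p member); the 3p arms of miR-181b and miR-181d were listed with them, and neighbours within 50 kb were a later addition, made with the values in view. Chromatin and messenger RNA measurements were not analysed here.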

Additional observations from a re-analysis of the deposited data

How the results depend on the processing

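The log2 ratio of the 4-guide sum kept its direction under each alternative run. In Eed-/- it was -1.11, and -1.24 with TMM, -1.34 with median-ratio factors, -0.40 with RPM denominators, -0.97 with all loci summed, -1.05 with 3p members added and -0.37 without miR-181c-5p, an alternative chosen after the data were seen. In Ezh2-/- it was -1.34, and -0.61, -0.82, -0.90, -1.37, -1.30 and -1.22 in that order. In Jarid2-/- it was -1.48, and -1.60 with median-ratio factors, -0.99 with RPM denominators, -1.43 with all loci summed, -1.44 with 3p members added and -0.74 without miR-181c-5p. Family loci called lower were 1 in Eed-/- (0 with RPM denominators, where the 2 loci of miR-181b-5p, which share reads, were higher in place of 0), 8 in Ezh2-/- (5 with each other scaling, 7 with 10 CPM added) and 3 in Jarid2-/- (5 with median-ratio factors, 2 with RPM denominators and 2 with 10 CPM added). These counts are to be read against those over all loci below. Of 132 values of single members under alternatives, 127 kept their sign, and the 5 others arose with the RPM denominators. A change of the count filter or of the CPM added cannot change a sign. Only the values under another scaling could do so, and the kept signs are therefore no measure of robustness. The order of genotypes was the same for 4 of 7 members with TMM, 4 with median-ratio factors and 1 with RPM denominators. Counting both copies of miR-181a-5p gave 3p shares of 11.1% in Eed-/-, 16.4% in Ezh2-/-, 6.22% in Jarid2-/- and 13.2% in wild-type, against 20.0%, 28.2%, 11.7% and 23.3%. Over all loci, 192 of 1096 tested were higher and 164 lower in Eed-/- (131 and 196 with median-ratio factors, 369 and 110 with RPM denominators, 281 and 223 with 0.1 CPM added, 105 and 113 with 10 CPM). In Ezh2-/- 49 of 1000 were higher and 245 lower (145 and 163 with TMM, 111 and 189 with median-ratio factors, 101 and 194 with RPM denominators, 87 and 345 with 0.1 CPM, 26 and 160 with 10 CPM). In Jarid2-/- 155 of 950 were higher and 217 lower (142 and 235 with median-ratio factors, 259 and 184 with RPM denominators, 95 and 145 with 10 CPM). The numbers tested were the same under each of these settings. The causes were not tested. No paired analysis was possible because each genotype has 1 column. The Jarid2-/- column, with the fewest counts, limits the low 3p members most.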
